A study of Mus musculus with 6 samples.

Results

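The mitochondrial solute carriers are the proteins of the SLC25 family, and their genes were taken here as all protein-coding genes whose symbol starts with Slc25a and a number and that had at least 1 count in at least 3 of the 6 libraries. That rule found 39 members among 47 Slc25a genes in the table, which listed 55357 gene identifiers, 21137 of them with counts. The rule used detection only and no comparison between genotypes. The libraries came from long-term blood stem cells (LT-HSCs), which renew themselves and give rise to all blood lineages, sorted from bone marrow as cells negative for lineage markers and CD48 and positive for Sca-1, c-Kit and CD150. There were 3 libraries from mice with a Dcaf8 knockout (KO) and 3 from wild-type mice, each library amplified from 50 sorted cells of a young mouse. Strain, sex, exact age, the knockout allele and whether it acts in blood cells alone are not stated. The study asked which transcripts differ in stem cells without Dcaf8, whose product brings substrates to ubiquitin ligases built on CUL4 and DDB1.

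SLC25 carriers sit in the inner mitochondrial membrane, where each moves a small molecule such as a nucleotide, phosphate, a carboxylic or amino acid, a cofactor or iron between the cytosol and the matrix, mostly in exchange for another. They are made on cytosolic ribosomes, and the import machinery of both membranes inserts them. LT-HSCs are known to draw on glycolysis more than on respiration while quiescent, and carriers link the cytosolic and mitochondrial branches of metabolism. A few members left the inner membrane in evolution and act in the outer membrane or in peroxisomes.

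Total counts were 14461864 to 22386387 per library, and 15244 to 17015 genes were detected. The targeted gene, Dcaf8, stood at 74.3, 38.1 and 45.2 CPM in knockout replicates 1 to 3, against 290.5, 292.7 and 203.8 CPM in wild-type replicates 1 to 3. Levels in CPM, here and for all carriers, are counts relative to the library total scaled to a common library size by TMM, and values always follow the replicate numbers 1 to 3. Of the 11 LT-HSC marker genes the summed level was 2830 to 3473 CPM of the total count in knockout and 3070 to 3420 in wild-type libraries. A list of 10 neutrophil markers summed to 6217 CPM of the total count in wild-type replicate 2 and to 6.79 to 29.4 in the other 5 libraries. In wild-type replicate 2 Ngp (2379 CPM) and Ltf (1154 CPM) were the highest of them, while Elane and Mmp8 were at 0 and Mpo at 5.17 CPM. Summed erythroid markers were 129 to 218 CPM of the total count in knockout and 127 to 160.1 in wild-type libraries, with Car1 at 0 everywhere. Single erythroid markers went different ways. Wild-type replicate 2 had the highest Hba-a1 (24.5 CPM, elsewhere 2.55 or less), Hbb-bs (24.1 CPM, elsewhere 10.8 or less) and Slc4a1 (3.74 CPM, elsewhere 0). It had the lowest Hbb-bt (23.8 CPM), which was highest in knockout replicate 2 (138 CPM). The macrophage and monocyte list summed to 411 to 573 CPM of the total count in knockout and 445 to 963 in wild-type libraries, highest in wild-type replicate 2, with Adgre1 and Ccr2 at 0. Knockout replicate 3 had Xist at 50.8 CPM and no counts of Ddx3y, whereas the other 5 libraries had Xist at 1.25 CPM or less and Ddx3y at 56.7 to 156 CPM. The part of these differences between libraries in the results below was not tested, and values without the libraries concerned are given for some genes and sums.

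The summed level of the carrier transcripts overlapped between the genotypes, and most single carriers did too. No member passed the threshold of an adjusted p under 0.05 (edgeR quasi-likelihood test, Benjamini-Hochberg adjustment over all 14592 genes tested), and neither did any other gene, 0.0% of those tested. That includes the targeted gene Dcaf8, with a log2 fold change of -2.28 ± 0.28 (SE) and an edgeR adjusted p of 0.739. The lack of calls therefore does not show that levels were equal. Among the 38 members tested, 17 had higher and 21 had lower values in knockout cells, and the share with a log2 fold change above 0 was 44.7%, beside 50.9% of all genes tested. The median log2 fold change was -0.047, beside 0.0088 over all genes tested, and the members ranged from -1.54 for Slc25a30 to 1.22 for Slc25a53. An unadjusted p under 0.05 was found for 2 members, Slc25a30 and Slc25a46, both with lower values in knockout cells. That is 5.26% of the members, beside 5.82% of all genes tested, of which 3.47% had higher and 2.35% lower values in knockout cells. The knockout and wild-type libraries did not overlap for 1 member, Slc25a30 (2.63% of the members tested), beside 10.3% of all genes tested. DESeq2, run on the same genes, gave an adjusted p for 37 of the 38 members, all but Slc25a40, and called none of them (0.466% of all genes tested, 68 genes, passed its adjusted threshold, and 162 had no adjusted p). The limma-voom fit and the older edgeR method called none either. DESeq2, limma-voom and older edgeR had 2, 2 and 1 members at an unadjusted p under 0.05, beside 5.22, 5.31 and 3.83% of all genes tested. In sorted bulk samples fewer cells with a transcript and less of it per cell cannot be told apart.

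**Figure D1:**
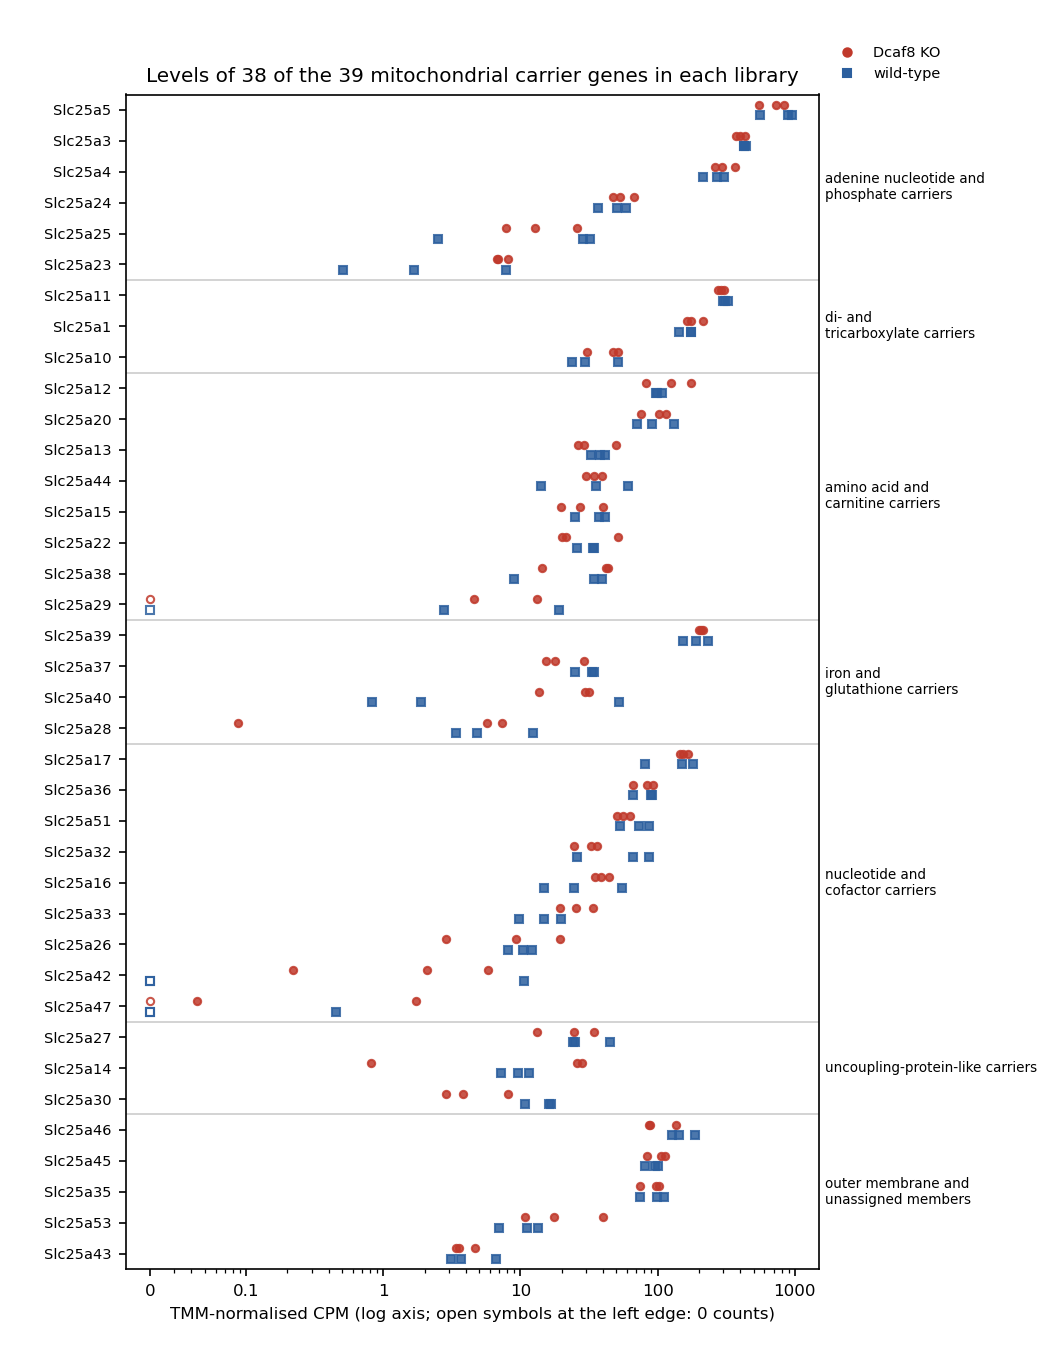
TMM-normalised CPM of 38 of the 39 members on a log axis, grouped by role, with circles for the 3 Dcaf8 KO libraries above squares for the 3 wild-type libraries of each gene and open symbols for 0 counts. Circles and squares of a gene overlap in range for every tested member shown except Slc25a30, and Slc25a5 has the highest level in its group and in the family, also per length.

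The summed level of all 39 members was 3389, 3522 and 3549 CPM in knockout and 3142, 3810 and 3811 CPM in wild-type libraries. The means were 3486 ± 85.7 CPM in knockout and 3588 ± 386 CPM in wild-type libraries (SD, n = 3 each), a log2 ratio of -0.041. The spread among wild-type mice was thus wider than the distance between the genotypes, and wild-type replicate 1 had the lowest sum of all 6 libraries. Slc25a5, Slc25a3, Slc25a11, Slc25a4, Slc25a39 and Slc25a1 together made up 57.9 to 61.8% of that sum. Slc25a5 alone took 16.1, 20.5 and 23.4% of the carrier sum in knockout and 17.6, 24.8 and 23.6% in wild-type libraries. It was the lowest in replicate 1 of both genotypes.

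**Figure D2:**
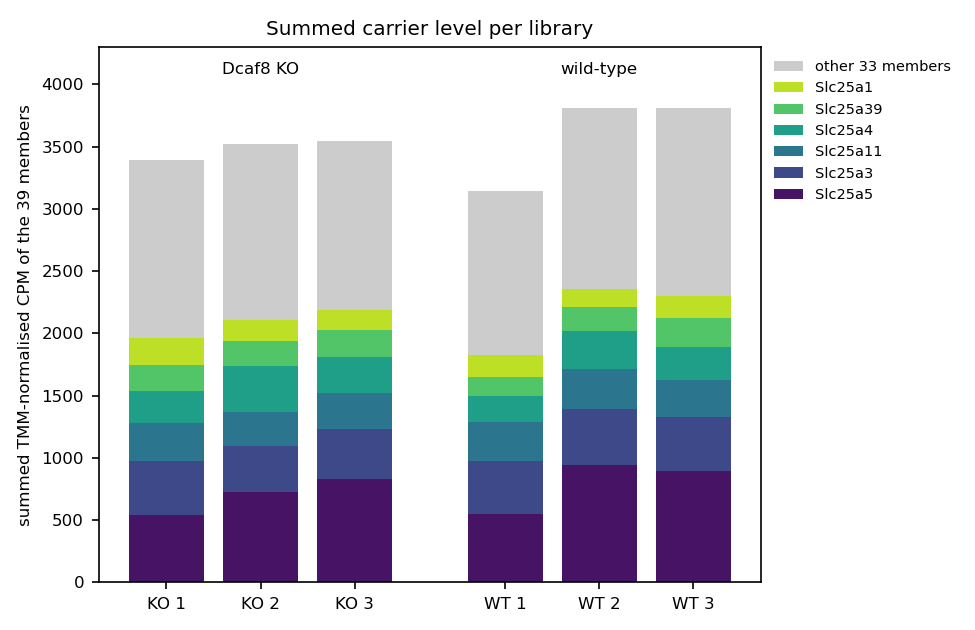
Stacked bars give the summed TMM-normalised CPM of the 39 members in each library, with the 6 most abundant genes in colour and the other 33 in grey, for knockout (KO) replicates 1 to 3 and wild-type (WT) replicates 1 to 3. The knockout bars stand between 3389 and 3549 CPM, inside the wild-type range of 3142 to 3811 CPM.

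Levels of different genes were compared per kilobase of the longest principal transcript. Slc25a5 averaged 564 CPM per kilobase in knockout and 644 in wild-type libraries, and Slc25a3 averaged 248 in knockout and 268 in wild-type libraries. In all 6 libraries Slc25a5 lay above Slc25a3 and Slc25a3 above Slc25a11, with no overlap of their ranges. From Slc25a11 (169.8 CPM per kilobase in knockout and 182 in wild-type libraries) downward through Slc25a4, Slc25a39, Slc25a1, Slc25a17, Slc25a20, Slc25a35, Slc25a45 and Slc25a46, each gene's range over the 6 libraries overlapped that of the next. Within libraries, Slc25a4 lay above Slc25a39, Slc25a17 above Slc25a20 and Slc25a35 above Slc25a45 in all 6, while the other neighbours from Slc25a11 to Slc25a46 changed places in 1 to 3 libraries. With all annotated exons as the length, Slc25a3 ranked 5 in place of 2. Of the 16 members with a mean of at least 50 CPM, 12 stayed within a 2-fold range over all 6 mice, and the widest of the 16 was 2.27-fold. Of the 23 members under 50 CPM, 1 stayed within 2-fold. At least a 10-fold range or a library with 0 counts was found for 8 members, 3 of them with a 0. The median standard error of the log2 fold change was 0.24 for the abundant members and 0.55 for those under 50 CPM.

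The stretches just upstream of 3 genes are shown because these were the most abundant pair and the gene whose groups did not overlap. They are the 250 bases before the annotated start in RefSeq GRCm38.p6, another build than that of the counts, at chrX:36795347-36795596 on the plus strand for Slc25a5, chr10:91123968-91124217 on the minus strand for Slc25a3 and chr14:75787038-75787287 on the minus strand for Slc25a30. Each is written 5′ to 3′ along the gene, with capitals for the SP1 box GGGCGG or its complement CCGCCC.
Slc25a5: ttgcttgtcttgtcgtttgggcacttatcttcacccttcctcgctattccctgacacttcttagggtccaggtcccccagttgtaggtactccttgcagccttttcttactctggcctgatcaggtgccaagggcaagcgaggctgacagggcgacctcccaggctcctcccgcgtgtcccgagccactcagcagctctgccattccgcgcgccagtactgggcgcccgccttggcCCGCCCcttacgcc
Slc25a3: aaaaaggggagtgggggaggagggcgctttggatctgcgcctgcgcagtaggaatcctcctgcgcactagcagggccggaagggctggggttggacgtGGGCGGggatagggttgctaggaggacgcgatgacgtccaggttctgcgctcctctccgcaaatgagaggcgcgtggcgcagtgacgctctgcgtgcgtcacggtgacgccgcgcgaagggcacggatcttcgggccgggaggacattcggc
Slc25a30: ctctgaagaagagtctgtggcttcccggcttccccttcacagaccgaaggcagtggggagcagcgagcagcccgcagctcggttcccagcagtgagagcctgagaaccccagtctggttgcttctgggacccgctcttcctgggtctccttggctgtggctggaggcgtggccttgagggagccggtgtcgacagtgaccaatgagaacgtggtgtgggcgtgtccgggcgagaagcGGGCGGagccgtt

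Windows from 250 bases before to 50 after the start were found for 30 of the 39 members. The SP1 box, searched on both strands, was in a window of 27 of these 30 genes (90.0%), beside 67.4% of the 9910 tested genes with a window and 38.2% of all 27025 genes. The MYC E-box CACGTG was in 6 (20%, beside 11.9% of tested genes), among them Slc25a1. The ETS core CCGGAAGT was in 1, Slc25a20 (3.33%, beside 9.37%), while the NRF1 core GCATGCGC and the TATA box TATAAA were in none, beside 6.04 and 8.56% of tested genes. All motifs were searched on both strands and apart from each other, so that matches of different motifs may overlap. Members had a median of 17 CpG per window, beside 20 in windows of tested genes. These counts describe letters and say nothing of binding.

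Among the adenine nucleotide and phosphate carriers 6 members were tested, 3 higher and 3 lower in value in knockout cells, none called and none without overlap. Slc25a5, the ADP/ATP carrier ANT2 that is known from dividing cells, stood at 544, 723 and 829.7 CPM in knockout libraries, against 553, 946 and 898 CPM in wild-type libraries. In both genotypes replicate 1 was the lowest library, and the log2 fold change was -0.20 ± 0.23 (SE), with an edgeR adjusted p of 0.971. Leaving out a library gave -0.40 without wild-type replicate 1 to -0.044 without knockout replicate 1. The value was -0.34 without knockout replicate 3 and -0.057 without wild-type replicate 2. Slc25a4 encodes ANT1, the ADP/ATP carrier of heart and muscle. It stood at 260.1, 368 and 293 CPM in knockout libraries, against 212, 303 and 269 CPM in wild-type libraries, a log2 fold change of 0.22 ± 0.19 (SE). The knockout range covered the upper part of the wild-type range. Per length, Slc25a5 made up 76.5, 75.3 and 81.5% of the ADP/ATP carrier transcripts in knockout and 80.2, 82.9 and 83.8% in wild-type libraries. The difference of the means was -4.56 percentage points (exact permutation p = 0.2, two-sided, where the smallest p for 3 against 3 is 0.1). The testis isoform Slc25a31 had no counts, and the pseudogene Slc25a5-ps, a close copy of Slc25a5 counted apart, had 0 to 35 counts per library. Slc25a3, which brings phosphate into the matrix for ATP synthesis, was the least variable of the abundant carriers next to Slc25a11. It stood at 431, 369.8 and 400.4 CPM in knockout libraries, against 423, 444 and 429 CPM in wild-type libraries, and its log2 fold change was -0.11 ± 0.11 (SE). The calcium-regulated ATP-Mg/phosphate carriers had lower levels per length. Slc25a23 had 6.79, 6.89 and 8.05 CPM in knockout and 0.507, 7.85 and 1.67 CPM in wild-type libraries, so that replicate 2 alone among the wild-type libraries reached the knockout values. Its log2 fold change of 1.05 ± 0.78 (SE) was 2.69 without wild-type replicate 2, the library rich in neutrophil markers, and 0.59 without wild-type replicate 1. Slc25a24 and Slc25a25 had log2 fold changes of 0.21 ± 0.29 and -0.36 ± 0.76, and Slc25a25 ranged from 2.49 to 32.1 CPM over the 6 libraries. Slc25a41 was counted in 2 libraries alone and is no member.

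The 3 di- and tricarboxylate carriers included the member with the narrowest range over the 6 mice, Slc25a11 at 1.19-fold, and none was called. Slc25a11 exchanges 2-oxoglutarate for malate in the malate-aspartate shuttle, which carries reducing equivalents into mitochondria. It stood at 305, 276 and 291 CPM in knockout libraries, against 311, 327 and 298 CPM in wild-type libraries, a log2 fold change of -0.10 ± 0.12 (SE). Slc25a1 exports citrate, the source of cytosolic acetyl-CoA, and stood at 215, 174 and 165 CPM in knockout libraries, against 174, 142 and 175 CPM in wild-type libraries. Knockout replicate 1 was highest and wild-type replicate 2 lowest, and the log2 fold change was 0.18 ± 0.18 (SE). Slc25a10, the dicarboxylate carrier, ranged from 23.8 to 51.1 CPM with a log2 fold change of 0.32 ± 0.38 (SE). The oxodicarboxylate carrier gene Slc25a21 was counted in wild-type replicate 3 alone.

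Among the 8 amino acid and carnitine carriers 3 had higher and 5 lower values in knockout cells, with none called. Slc25a12, the aspartate/glutamate carrier aralar of the same shuttle, stood at 124, 176 and 81.7 CPM in knockout libraries, against 97.9, 108 and 98.8 CPM in wild-type libraries. Knockout libraries held both the highest and the lowest value, and the log2 fold change of 0.29 ± 0.29 (SE) was 0.022 without knockout replicate 2. Its partner Slc25a13, citrin, had a log2 fold change of -0.071 ± 0.35. Slc25a20 carries acylcarnitines into the matrix for fatty acid oxidation. It stood at 103, 114 and 75.4 CPM in knockout libraries, against 70.3, 91.5 and 133 CPM in wild-type libraries, a log2 fold change of -0.032 ± 0.29 (SE) with the groups fully mixed. Slc25a38 brings glycine into mitochondria for haem synthesis, a step known from erythroid cells. It stood at 43.5, 14.3 and 42.2 CPM in knockout libraries, against 39.1, 8.92 and 34.1 CPM in wild-type libraries, low in replicate 2 of both genotypes, and its log2 fold change was 0.39 ± 0.58 (SE). The remaining 4 members of the group (Slc25a15, Slc25a22, Slc25a29 and Slc25a44) had log2 fold changes from -0.21 to 0.036, and Slc25a29, the basic amino acid carrier, had 0 counts in knockout replicate 2 and wild-type replicate 3. A list of enzymes of these shuttles, which also holds other metabolic enzymes such as Cs, Acly and Shmt2, gave no call either. Of 14 tested, none passed in either direction, 8 had higher values, and Got2, the mitochondrial aspartate aminotransferase, had higher values in every knockout than in every wild-type library (239, 197 and 195 CPM in knockout and 193, 168 and 154 CPM in wild-type libraries). Its log2 fold change was 0.30 ± 0.16 (SE), with an edgeR adjusted p of 0.889.

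The iron and glutathione carriers were 4 members with 2 higher and 2 lower values. Slc25a39 imports glutathione, the matrix antioxidant, and was the most abundant of them per length, at 206, 200.3 and 213 CPM in knockout libraries, against 153, 191 and 232 CPM in wild-type libraries. The 3 knockout libraries lay within the wild-type range, with a log2 fold change of 0.10 ± 0.18 (SE). Its paralog Slc25a40, which can also carry glutathione, stood at 31.6, 29.8 and 13.7 CPM in knockout libraries, against 52.0, 0.824 and 1.88 CPM in wild-type libraries. Wild-type replicate 1 held the highest value of all and the other wild-type libraries the lowest, and the log2 fold change of 0.53 ± 1.03 (SE) was 4.19 when wild-type replicate 1 was left out and -0.075 or -0.025 when wild-type replicate 2 or 3 was. By limma-voom it was 2.83. Leaving out wild-type replicate 1 gave Slc25a40 an edgeR adjusted p of 0.466. Slc25a37, mitoferrin 1, is the iron importer known from erythroid precursors. It stood at 15.4, 29.1 and 18.001 CPM in knockout libraries, against 33.3, 25.1 and 34.4 CPM in wild-type libraries, with wild-type replicate 2 below knockout replicate 2 and otherwise higher values in wild-type mice. The log2 fold change was -0.63 ± 0.39 (SE), with an edgeR adjusted p of 0.919. Slc25a28, mitoferrin 2, serves iron import in other cells and stood at 0.0877, 7.38 and 5.70 CPM in knockout libraries, against 4.84, 3.39 and 12.3 CPM in wild-type libraries, a log2 fold change of -0.79 ± 0.90 (SE). That value was -0.11 when knockout replicate 1 was left out, -0.032 when wild-type replicate 3 was, and -1.55 by limma-voom. Per length, Slc25a37 made up 98.5, 59.2 and 53.7% of the mitoferrin transcripts in knockout and 71.6, 73.1 and 50.7% in wild-type libraries. The means differed by 5.29 percentage points (exact permutation p = 0.8, two-sided). The high value of knockout replicate 1 went with the near absence of Slc25a28 there. Of 9 tested genes for mitochondrial haem and iron-sulphur enzymes, which use the imported iron, none passed, 4 had higher and 5 lower values. Ppox had 106, 94.5 and 115 CPM in knockout and 66.0, 90.4 and 78.2 CPM in wild-type libraries, and Nfs1, the cysteine desulfurase of iron-sulphur assembly, had 64.3, 83.0 and 79.6 CPM in knockout and 97.3, 102 and 90.8 CPM in wild-type libraries, each without overlap.

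The nucleotide and cofactor carriers were 10 members, of which 9 were tested, 4 with values higher and 5 lower, and none called. Slc25a17, which acts in the peroxisomal membrane as a carrier of CoA, FAD and NAD, was the most abundant per length, at 145, 154 and 167 CPM in knockout libraries, against 80.3, 151 and 182 CPM in wild-type libraries. Wild-type replicate 1 was lowest, and the log2 fold change was 0.16 ± 0.28 (SE). Slc25a32, which is known to supply mitochondria with folate or FAD, had 24.6, 32.9 and 36.4 CPM in knockout and 26.0, 66.4 and 86.4 CPM in wild-type libraries. The knockout libraries were grouped near the lowest wild-type library, and wild-type replicates 2 and 3 lay above them. Its log2 fold change was -0.96 ± 0.46 (SE; edgeR adjusted p = 0.874), and -0.59 without wild-type replicate 3. Slc25a33, a pyrimidine nucleotide carrier, showed the opposite order at 19.3, 25.5 and 34.1 CPM in knockout libraries, against 19.7, 14.7 and 9.69 CPM in wild-type libraries. Knockout replicate 1 lay just under wild-type replicate 1, and the others did not overlap. The log2 fold change of Slc25a33 was 0.85 ± 0.45 (SE; edgeR adjusted p = 0.881), and its paralog Slc25a36 had -0.043 ± 0.24. Slc25a51, the NAD carrier of mammalian mitochondria, stood at 62.7, 55.5 and 50.8 CPM in knockout libraries, against 72.6, 53.0 and 86.1 CPM in wild-type libraries, a log2 fold change of -0.32 ± 0.27 (SE). Slc25a16, Slc25a26 and Slc25a42 had log2 fold changes of 0.36 ± 0.47, 0.16 ± 0.62 and -0.22 ± 1.45, and Slc25a42, a CoA carrier, had counts in 4 libraries. Slc25a47, a gene known from liver, was just inside the rule with 1 and 25 counts in knockout replicates 1 and 2 and 8 counts in wild-type replicate 1, and it was too low to test. Just outside the rule were Slc25a18, Slc25a21 and Slc25a34 with counts in 1 library each and Slc25a41 in 2, and Slc25a2, Slc25a31, Slc25a48 and Slc25a54 had none.

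**Figure D3:**
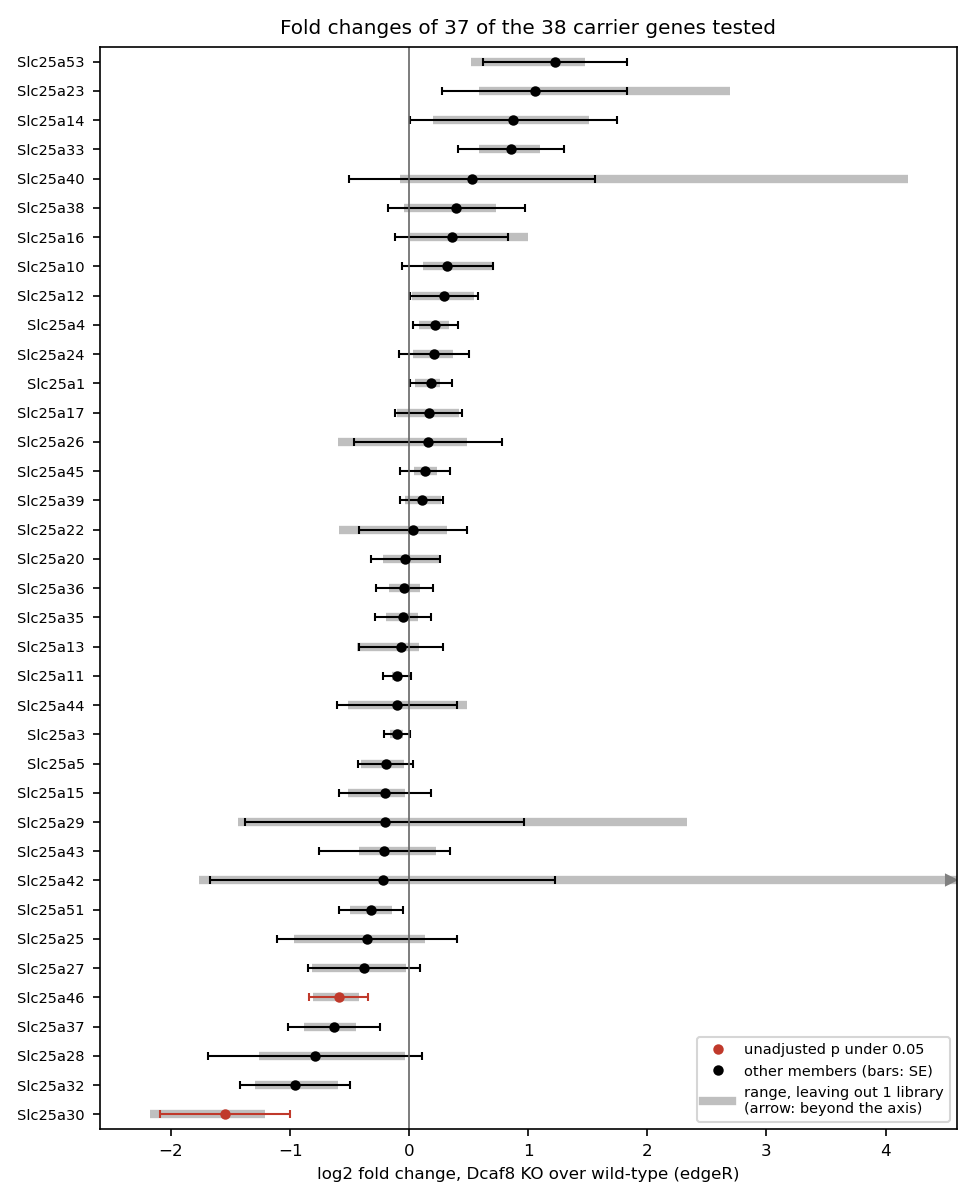
Log2 fold changes (Dcaf8 KO over wild-type, edgeR) of 37 of the 38 tested members from the highest to the lowest, with bars for the standard error and grey bars for the range when each library is left out in turn. Slc25a30 at -1.54 and Slc25a46 at -0.59, in red, have an unadjusted p under 0.05, and the widest grey bars belong to members under 50 CPM such as Slc25a40, Slc25a29 and Slc25a42, whose bar runs past the axis.

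The uncoupling-protein-like carriers held the lowest log2 fold change of the family. Slc25a30, also called KMCP1, resembles the uncoupling proteins in sequence and was first known from kidney. It stood at 2.85, 3.83 and 8.05 CPM in knockout libraries, against 10.9, 16.0 and 16.7 CPM in wild-type libraries. Every knockout library was lower than every wild-type library, with 4.91 ± 2.76 CPM in knockout and 14.5 ± 3.19 CPM in wild-type libraries (SD, n = 3 each). The log2 fold change was -1.54 ± 0.54 (SE; unadjusted p = 0.0218; edgeR adjusted p = 0.781), and leaving out each library in turn gave -2.18 to -1.21. Without wild-type replicate 2 it was -1.47, and with the replicate number as a block -1.53. Slc25a27, the brain carrier UCP4, stood at 34.3, 24.4 and 13.3 CPM in knockout libraries, against 25.0, 24.0 and 44.8 CPM in wild-type libraries, a log2 fold change of -0.38 ± 0.47 (SE). Slc25a14, the X-linked UCP5, stood at 28.2, 26.0 and 0.814 CPM in knockout libraries, against 7.26, 11.5 and 9.64 CPM in wild-type libraries. Knockout replicate 3 was lowest and the other knockout libraries highest, and the log2 fold change of 0.87 ± 0.87 (SE) was 1.51 without that replicate, which is the one with high Xist, 0.20 without knockout replicate 1 and 0.012 by limma-voom. Of 5 family members with other names, 3 were tested, all with log2 fold changes above 0, each with overlap and none called. Their summed level was 786, 809 and 759 CPM in knockout and 699.8, 657 and 639.5 CPM in wild-type libraries. The sum was higher in every knockout than in every wild-type library, but none of the 3 genes was by itself. Mtch1 was lowest in wild-type replicate 2 at 91.2 CPM and Ucp2 in wild-type replicate 3. How often sums of other genes separate in this way was not tested. Ucp1 and Ucp3 had no counts, Ucp2 stood at 418, 451 and 398 CPM in knockout and 378, 399.8 and 266 CPM in wild-type libraries with a log2 fold change of 0.28 ± 0.17 (SE), and the outer membrane insertase Mtch2 had 0.0012 ± 0.14, beside 0.39 ± 0.26 for its relative Mtch1.

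**Figure D4:**
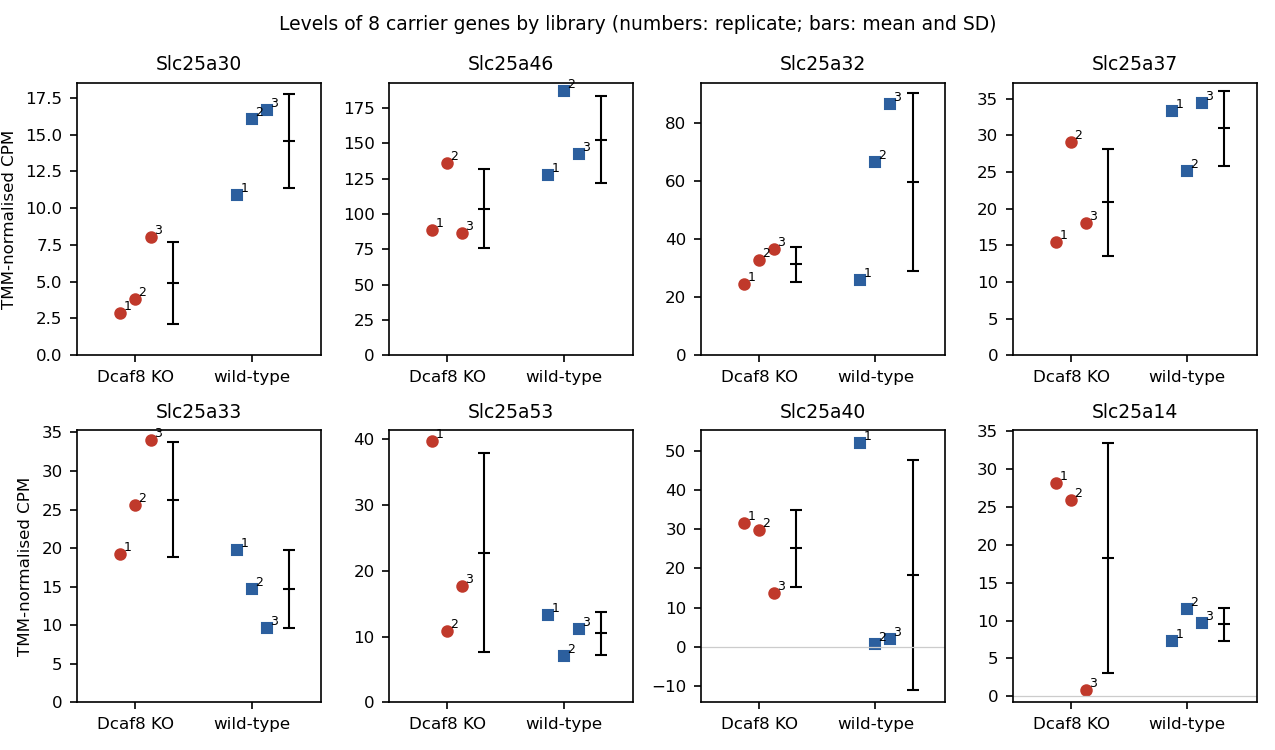
TMM-normalised CPM of 8 members in the 3 Dcaf8 KO libraries (left) and the 3 wild-type libraries (right), numbered by replicate, with bars for the mean and SD. Only in the Slc25a30 panel do the circles and squares not overlap, and in the Slc25a40 panel the wild-type libraries hold both the highest value, 52.0 CPM, and the lowest, 0.824 CPM.

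Of the 5 outer membrane and unassigned members, 2 had higher and 3 lower values in knockout cells. Slc25a46 acts in the outer mitochondrial membrane, where it takes part in membrane dynamics and lipid transfer, and mutations in the human gene cause optic atrophy and neuropathy. It stood at 88.6, 136 and 86.3 CPM in knockout libraries, against 128, 187 and 143 CPM in wild-type libraries. Knockout replicates 1 and 3 were below all wild-type libraries and knockout replicate 2 lay between wild-type replicates 1 and 3. The means were 104 ± 28.1 CPM in knockout and 153 ± 30.9 CPM in wild-type libraries (SD, n = 3 each). Its log2 fold change was -0.59 ± 0.25 (SE; unadjusted p = 0.0466; edgeR adjusted p = 0.851), and -0.42 without wild-type replicate 2. Slc25a35 and Slc25a45, carriers whose substrates in these cells are not established, stood at 96.5, 74.0 and 102 CPM in knockout libraries, against 74.4, 99.7 and 111 CPM in wild-type libraries, and at 113, 83.4 and 105 CPM in knockout libraries, against 96.3, 101 and 81.0 CPM in wild-type libraries. Their log2 fold changes were -0.051 ± 0.23 and 0.13 ± 0.21 (SE), and 31.3% of the exon length of Slc25a35 overlaps Rangrf on the opposite strand in GENCODE M21. Opposite-strand overlaps also covered 14.9% of the exon length of Slc25a33, 8.92% of Slc25a11, 7.06% of Slc25a46, 6.60% of Slc25a10 and 6.33% of Slc25a37. They covered 4.82% or less in the other members, and whether counting used strand is not stated. Slc25a53, on the X chromosome, stood at 39.7, 10.9 and 17.7 CPM in knockout libraries, against 13.3, 6.98 and 11.1 CPM in wild-type libraries. Knockout replicate 1 was far above the rest, and the log2 fold change of 1.22 ± 0.61 (SE; edgeR adjusted p = 0.874) was 0.52 without it. Slc25a43, also X-linked, had a log2 fold change of -0.21 ± 0.55. With the 4 X-linked members (Slc25a5, Slc25a14, Slc25a43 and Slc25a53) summed, knockout libraries had 617, 764 and 852 CPM, against 577, 972 and 922 CPM in wild-type libraries, and knockout replicate 3 lay inside the wild-type range.

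Genes around the carriers gave no call by edgeR in any list. Of 17 tested inner membrane transporters of other families, 7 had higher and 10 lower values. Sfxn5, a sideroflexin, had 1.05, 1.6009 and 0 CPM in knockout and 6.53, 5.09 and 4.52 CPM in wild-type libraries and a log2 fold change of -2.74 ± 0.87 (SE; edgeR adjusted p = 0.739), while Sfxn4 had -1.10 ± 0.56 and Sfxn2 0.64 ± 0.36, all without overlap. The pyruvate carrier subunits Mpc1 and Mpc2 had 0.056 ± 0.24 and -0.061 ± 0.22. Of 13 genes of the import machinery for carriers, 5 had higher and 8 lower values, and 1, Timm29, a subunit of the TIM22 complex that inserts carriers, had an unadjusted p under 0.05 at 113, 127 and 184 CPM in knockout and 96.2, 83.8 and 86.7 CPM in wild-type libraries. Its log2 fold change was 0.67 ± 0.24 (SE; edgeR adjusted p = 0.797), and Timm22 itself had 0.016 ± 0.27. The 4 outer membrane channel genes gave 2 higher and 2 lower values. Of 10 regulators of mitochondrial biogenesis, 5 had higher and 5 lower values. Polg, the mitochondrial DNA polymerase, had 22.1, 32.3 and 26.0 CPM in knockout and 64.7, 37.3 and 40.7 CPM in wild-type libraries without overlap, a log2 fold change of -0.85 ± 0.36 (SE; edgeR adjusted p = 0.853), and Tfam had 0.090 ± 0.24. Esrra, a nuclear receptor that drives mitochondrial genes, went the other way without overlap at 18.1, 14.965 and 15.6 CPM in knockout and 9.06, 13.7 and 10.4 CPM in wild-type libraries, a log2 fold change of 0.56 ± 0.42 (SE). These 2 of 10 regulators without overlap are 20%, beside 10.3% of all genes tested. The share was 4 of 17 (23.5%) for the other inner membrane transporters and 2 of 9 (22.2%) for the haem and iron-sulphur enzymes. For the import machinery the share was 1 of 13 (7.69%), and for the shuttle and other metabolic enzymes 1 of 14 (7.14%). It was 0% for the 3 tested family members with other names and for the 4 outer membrane channel genes.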

How the data were processed

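The data were raw read counts per gene, 1 column per library, as deposited by the authors. Each library came from 50 sorted cells of 1 mouse by full-length mRNA amplification and tagmentation, per the labels' protocols. Trimmomatic 0.39, HISAT2 2.2.1, Picard 2.26.1, HTSeq 1.99.2, DESeq2 1.38.3 and the build mm39 are named, without roles, per the submitters' processing notes. The annotation release and strand setting are not stated, so overlapping genes and close copies could have exchanged reads. There were no molecular identifiers.

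Symbols were matched for 52081 identifiers (94.1%, 99.87% of counts). edgeR 4.0.16 (R 4.3.3) used filterByExpr (minimum count 10, minimum total 15), TMM and a robust quasi-likelihood fit (legacy off) with genotype as the only term, on all 14592 genes, with Benjamini-Hochberg adjustment and a threshold of 0.05. Standard errors came from the F statistic. Shares were compared by exact permutation over 20 assignments. Lengths came from GENCODE M21 and promoters from RefSeq, both GRCm38. Marker sums and single marker levels are CPM of the total count, other levels TMM-normalised CPM. The fits were run on simulated counts to check that added changes were recovered, which does not measure their power for the members.

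The members and lists were chosen with earlier results of these data known. Values in every library are given for the 2 most abundant members per length of each role, all with an unadjusted p under 0.05, the 4 largest log2 fold changes per direction, those without overlap, and 7 chosen for their roles, 24 in all, and 1 member is not reported here by name. Alternatives were normalization by RLE or upper quartile, dropping the filter or raising it to 5 CPM, DESeq2 1.42.0 on the same filtered genes, limma-voom (limma 3.58.1), legacy quasi-likelihood, the replicate number as a block, normalization without mitochondrially encoded genes and the top 20, and each library left out. Replicate numbers give no pairing in the labels.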

Additional observations from a re-analysis of the deposited data

How the results depend on the processing

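No member passed an adjusted p under 0.05 by DESeq2 or limma-voom, which were run only on all 6 libraries with the main filter. None passed by edgeR under the other alternatives, and the lowest adjusted p of a named member was 0.466. The count of members with an unadjusted p under 0.05, 2 in the main comparison, was 1 with the legacy quasi-likelihood fit and 0 to 5 when a library was left out, with 0 without knockout replicate 1 or wild-type replicate 3, 1 without wild-type replicate 2, and the 5 when wild-type replicate 1 was dropped. Over all genes tested that last fit gave an unadjusted p under 0.05 for 9.37%, against 5.82% in the main comparison. The median log2 fold change of the members was -0.10 to 0.041 when a library was left out. The difference in the mitoferrin share of Slc25a37 ran from -8.71 to 13.7 percentage points when a library was left out, turning negative without knockout replicate 1 or wild-type replicate 3. Of 360 values of the 24 named members under alternatives, 350 kept their direction and 10 did not. Leaving out a library turned the sign of 6 of the 24 named and of 10 of the other 14 tested members, 16 of 38 in all. Slc25a20 was 0.079 by limma-voom and -0.22 to 0.25 when a library was left out. The other changes of direction came from leaving out a library and covered -0.10 to 0.42 for Slc25a17, -0.19 to 0.072 for Slc25a35, -0.047 to 0.73 for Slc25a38, -0.034 to 0.26 for Slc25a39 and -0.075 to 4.19 for Slc25a40. The causes were not tested. The sum without Slc25a5 was added after seeing the data and gave a log2 ratio of -0.00069. Same-numbered libraries correlated in their deviations at 0.059, -0.038 and 0.0058, and differently numbered ones at -0.048 to 0.042. These values cannot tell whether same-numbered libraries were handled together. With the replicate block 2 members had an unadjusted p under 0.05, beside 5.53% of all genes tested. The median log2 fold change of the members was then -0.028 and no adjusted call arose. At 50 cells per library, members under 50 CPM had standard errors too wide to tell modest differences apart.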
